A study of Homo sapiens with 50 samples.

Results

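H1 human embryonic stem cell cultures given HCl were compared with cultures given NaHCO3 after 3 days of differentiation. HCl is a strong acid and NaHCO3, sodium bicarbonate, is the base of the bicarbonate buffer. The genes described are those with at least 1 FPKM (fragments counted per gene, scaled to gene length and library depth) in 2 or more of the 4 libraries. They number 14135 of the 57905 genes in the deposited table, and 11716 of them are annotated as protein-coding. At least 1 FPKM was reached in all 4 libraries by 11851 of these genes, in both HCl libraries but in neither NaHCO3 library by 754, and in both NaHCO3 libraries but in neither HCl library by 535. At the edge of this choice, 295 of the genes had a second-highest value of 1 to 1.1 FPKM, and 352 genes left out had one of 0.9 to 1 FPKM.

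All groups were wild-type H1 cells, an established embryonic stem cell line, labelled as undergoing cardiac differentiation. The study asked how changes of pH act on the differentiation of cardiomyocytes, the muscle cells of the heart. Each group had 2 libraries: HCl, NaHCO3 and untreated differentiation control on day 3, the same arms on day 5, and, on day 3, IWP2 and IWP2 with NaHCO3. Other groups entered the same fit and add to its estimate of the spread. They were IWP2 and IWP2 with NaHCO3 on day 5, and IWP2, NaHCO3 and 2-DG given together on days 3 and 5. IWP2 is a small molecule that blocks secretion of WNT proteins. The labels give no dose, time of addition or measured pH, and do not say whether replicates were separate cultures. The p-values therefore measure the spread between these libraries, which may be technical.

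Libraries held 16294631 and 16531753 counts with HCl and 18707758 and 16512519 with NaHCO3, and the 14135 genes took 99.161 to 99.226% of them. All 7 pluripotent, 7 primitive streak, 7 cardiac mesoderm, 6 endoderm and 6 presomitic mesoderm markers checked reached the expression limit. SOX1 and PAX6 of the neural set, VTCN1 and CGA of the amnion set, and TAL1 and CDH5 of the endothelial set stayed under 0.1 FPKM in all 4 libraries. One library stood apart. RNAs that carry no poly(A) tail took 1.5166% of the counts of HCl replicate 1, against 0.0773% in HCl replicate 2, 0.0305 and 0.0407% with NaHCO3, and 0.0352 and 0.0415% in the control. RPPH1, the RNA of ribonuclease P, was at 117.55 FPKM in HCl replicate 1 and 2.09 in replicate 2, against 0.5 and 0.57 with NaHCO3. In that list of such RNAs and replication-dependent histones, 9 of 13 genes were called higher with HCl, and 2 of 13 without HCl replicate 1. Without HCl replicate 1, the comparison described below gave a similar total of calls, though not all of the same genes. The list counts given for cell cycle, YAP and glycolytic genes without it were 22 of 28 mitotic, 25 of 30 replication and 8 of 20 glycolytic genes lower with HCl, and 12 of 23 YAP and TEAD targets higher.

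WNT, BMP and NODAL signals set up the primitive streak, where pluripotent cells become mesoderm and endoderm. High WNT activity with CDX and HOX genes marks the posterior end of the embryo, and low WNT with SOX2, OTX2 and SIX3 marks the anterior end. In cultured cells, acid in the medium slows glycolysis and alkaline medium favours it, because phosphofructokinase and lactate export respond to protons.

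Promoter sequences are shown for 4 genes of 2 groups described below, the targets of YAP with TEAD and the mitotic genes. They were picked by hand from called genes that hold a marked motif, so they are illustrations. Each is the 250 bases before the gene's start on the gene's own strand, from RefSeq on GRCh38.p14. In CTGF and ANKRD1 the capitals mark GGAATG, the core of TEAD sites. In CCNB1 they mark CCAAT, bound by NF-Y, and in CDK1 they mark CCAAT and TTTGAA, the cell cycle homology region. CCNB1 held no TTTGAA in these bases. All motifs were searched on both strands.
CTGF (CCN2), chr6:131951373-131951622, minus strand: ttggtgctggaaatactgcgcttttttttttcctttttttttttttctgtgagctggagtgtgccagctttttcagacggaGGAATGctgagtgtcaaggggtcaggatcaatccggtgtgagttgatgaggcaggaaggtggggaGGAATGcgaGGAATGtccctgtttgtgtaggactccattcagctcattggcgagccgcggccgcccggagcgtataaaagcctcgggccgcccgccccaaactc
ANKRD1, chr10:90921088-90921337, minus strand: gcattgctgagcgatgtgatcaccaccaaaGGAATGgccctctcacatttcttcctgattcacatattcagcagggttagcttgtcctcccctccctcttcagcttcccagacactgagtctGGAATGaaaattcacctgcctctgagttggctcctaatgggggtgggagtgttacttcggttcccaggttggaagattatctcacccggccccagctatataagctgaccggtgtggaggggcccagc
CCNB1, chr5:69166900-69167149, plus strand: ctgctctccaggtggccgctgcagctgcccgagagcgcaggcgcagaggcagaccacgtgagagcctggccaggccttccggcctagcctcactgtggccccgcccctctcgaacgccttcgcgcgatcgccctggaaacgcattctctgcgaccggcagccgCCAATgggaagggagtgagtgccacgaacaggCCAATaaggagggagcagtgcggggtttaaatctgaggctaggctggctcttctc
CDK1, chr10:60778081-60778330, plus strand: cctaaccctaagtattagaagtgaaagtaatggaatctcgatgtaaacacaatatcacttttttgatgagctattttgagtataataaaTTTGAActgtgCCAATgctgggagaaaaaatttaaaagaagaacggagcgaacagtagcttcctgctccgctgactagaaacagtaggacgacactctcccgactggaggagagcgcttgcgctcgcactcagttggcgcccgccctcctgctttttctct

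CTGF holds 3 matches and ANKRD1 holds 2. Shares were counted over the same 250 bases before the start. GGAATG was present in 4 of the 11 called YAP and TEAD targets that had a promoter entry (36.4%), against 11.9% of the 27305 RefSeq promoters of this length. TTTGAA was found in 9 of 15 called mitotic genes (60%), against 13.6% of all promoters. CCAAT was found in 12 of those 15 (80%) and in 14 of 21 called DNA replication genes (66.7%), against 33.0% of all. The motif shared by C/EBP and ATF factors, TGATGNAAT, was in 0 of 7 called stress response promoters and 0.9% of all. The E box CACGTG was in 1 of 9 called glycolytic promoters and 6.5% of all, and the cyclic AMP element TGACGTCA in 1 of those 9 and 1.8% of all. CACGTG was also in 4 of 15 mitotic (26.7%), 2 of 11 YAP and TEAD (18.2%), 2 of 21 replication (9.5%) and 0 of 7 stress response promoters. TGACGTCA was in 2 of 15 (13.3%), 0 of 11, 2 of 21 (9.5%) and 0 of 7 of them. Raised shares were thus not confined to 1 list. A match is a run of letters, not a measured binding site.

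A gene was called when edgeR's quasi-likelihood test gave a Benjamini-Hochberg adjusted p under 0.05 and the log2 fold change of HCl relative to NaHCO3 was at least 1 in size. Of the 14135 genes, 2678 were called (18.9%): 1547 were higher with HCl (10.9%) and 1131 were lower with HCl (8.00%). A difference of at least 2 on the log2 scale was seen in 789 called genes, 479 higher and 310 lower. The median log2 fold change of all 14135 genes was 0.02. In 2676 of the 2678 called genes both libraries of one arm lay above both of the other, as they did in 80.4% of all 14135 genes. In bulk RNA, fewer cells of a type and less RNA per cell cannot be told apart, and this holds for every gene group that follows. A gene under 1 FPKM in both libraries of one arm entered through the other arm alone, which fixed its direction. List counts that hold such genes are descriptions. Such genes named below include RSPO3, WNT9B, WNT2B, BMP5, LMO2, FOXD3, LEFTY2, ALDH1A2, FOXF2, GDF15, ERN1, DERL3, SLC9A9, ASIC3, THBS1 and APOA1. The counts of every list stand beside the 10.9% higher and 8.00% lower of all 14135 genes.

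**Figure D1:**
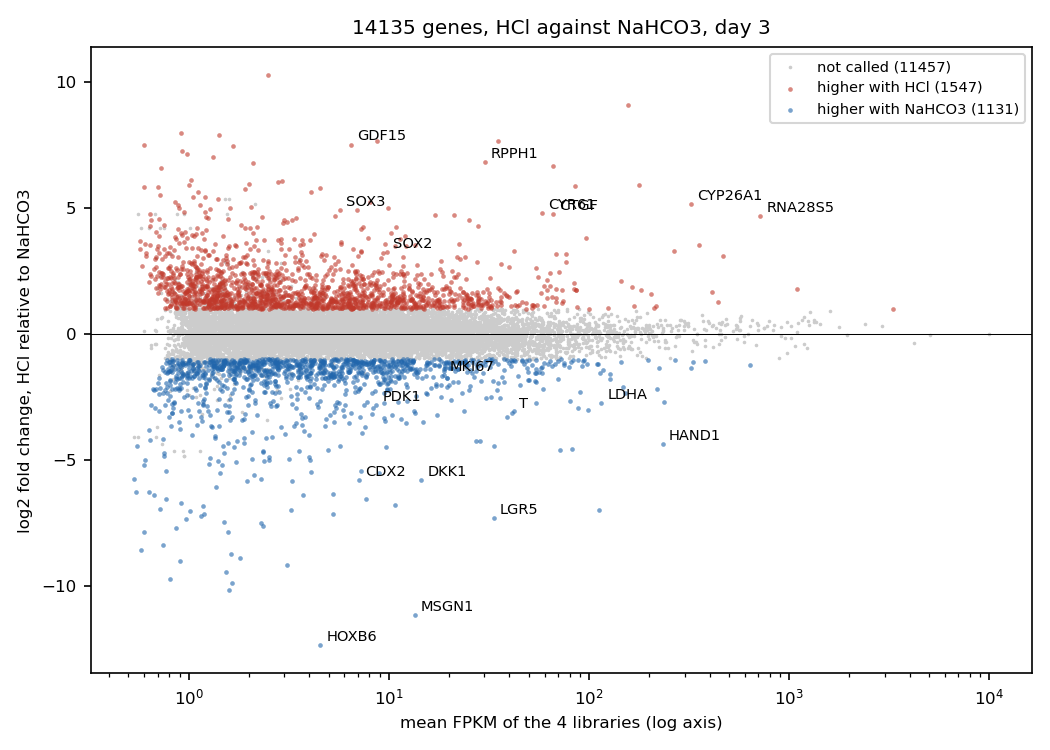
Each point is 1 of 14135 genes, with the mean FPKM of the 4 day 3 libraries on a log axis and the log2 fold change of HCl relative to NaHCO3 on the vertical axis. The 1547 red points are higher with HCl and the 1131 blue points higher with NaHCO3. HOXB6, MSGN1 and LGR5 lie at the bottom and GDF15 and CYP26A1 near the top; genes with 0 counts in one arm are drawn at the fitted value, which is no bound.

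HOXB6, HOXB3, CDX1, CDX2 and MSGN1, genes of the posterior body axis, were present with NaHCO3 and near or at 0 with HCl. HOX genes, which give segments their position, had 7 of 25 listed members above the expression limit, and all 7 were called lower with HCl. The 7 together summed to 0.9 FPKM in each HCl library, so each passed that limit through the NaHCO3 libraries alone, which fixed the direction of this count; it is given as a description. The median log2 fold change of the 7 was -9.73 as fitted and -5.47 with the genes at 0 set to their bound of 3 counts per library. HOXB6 (ENSG00000108511, GRCh37 chromosome 17, 46671639 to 46682354) was at 0 FPKM in both HCl libraries and at 10.2 and 7.92 with NaHCO3, at least 202-fold lower. Control libraries had 0.01 and 0.03 FPKM. HOXB6 was therefore high in the NaHCO3 libraries alone among these 6. HOXB5 was at least 36.6-fold lower and HOXB4 at least 32.9-fold lower, both at 0 with HCl. HOXB3, a neighbour in the same cluster, was at 0.12 and 0.06 FPKM with HCl, 8.36 and 6.32 with NaHCO3, and 1.41 and 0.78 in the control (log2 fold change -6.37, SE 0.30). Library groups did not overlap for any of these genes. The strand used in counting is not given, so reads of overlapping antisense genes of the cluster cannot be told apart.

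CDX2 and CDX1, homeobox activators of HOX genes, followed the same order. CDX2 was at 0.22 and 0.26 FPKM with HCl, 13.8 and 14.1 with NaHCO3, and 0.97 and 0.53 in the control (log2 fold change -5.79, SE 0.31). CDX1 was at 0.07 in both HCl libraries and at 11.7 and 9.34 with NaHCO3 (-7.13, SE 0.53). Both were low in the control. MSGN1, a regulator of presomitic mesoderm, was at 0 with HCl and at 28.1 and 25.9 FPKM with NaHCO3, at least 89.4-fold lower. Of 15 presomitic genes measured, 5 were higher and 5 lower with HCl (median -0.37), and the higher ones included the NOTCH ligand DLL3 at 286.88 and 272.99 FPKM with HCl against 82.7 and 88.1. The lower ones included MSGN1, CDX1, CDX2 and RSPO3, which passed the expression limit through the NaHCO3 libraries alone. The choice of genes fixed their direction, so this count is a description. The neuromesodermal and streak gene T (brachyury, GRCh37 chromosome 6, 166571144 to 166582188) was at 8.64 and 8.12 FPKM with HCl, 74.5 and 74.2 with NaHCO3, and 11.4 and 11.0 in the control (-3.12, SE 0.18, adjusted p = 9.22e-11). In T the NaHCO3 libraries were the ones apart, and the control lay beside HCl.

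Primitive streak and mesendoderm genes were more often lower: 9 of 19 were called lower and 3 higher (median -0.89). WNT8A, a streak ligand, was at 5.43 and 4.60 FPKM with HCl and 40.6 and 44.4 with NaHCO3 (-3.05, SE 0.26). EVX1, a posterior streak homeobox gene, was at 1.76 and 2.30 against 13.8 and 13.2 (-2.70). MIXL1 was called lower, at 36.6 and 36.5 against 81.6 and 84.0. The streak regulator EOMES was not called, at 114.49 and 120.2 FPKM with HCl and 69.7 and 72.5 with NaHCO3 (log2 fold change 0.75), nor was MESP1, the first cardiac mesoderm regulator, at 58.7 and 45.7 against 33.6 and 33.9 (0.66). GSC, which marks the anterior streak, was higher with HCl, at 37.97 and 33.01 FPKM against 7.05 and 8.13 (2.25, SE 0.20). WNT8A, EVX1, T and MIXL1 thus stood on the opposite side from GSC, while EOMES and MESP1 were not called.

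Targets and feedback genes of WNT signalling were mostly lower with HCl: 11 of 19 were called lower and 2 higher (median -1.31). LGR5 (GRCh37 chromosome 12, 71833550 to 71980090), a receptor for R-spondins, was at 0.35 and 0.47 FPKM with HCl, 67.3 and 65.5 with NaHCO3, and 30.7 and 23.6 in the control (-7.30, SE 0.24, adjusted p = 9.52e-14). DKK1, a feedback antagonist secreted from cells, was at 0.64 and 0.36 with HCl and 27.4 and 29.8 with NaHCO3 (-5.81, SE 0.31). NKD1, a feedback inhibitor, was at 2.95 and 2.56 against 55.9 and 52.1 (-4.26). AXIN2, a target used to read WNT activity, was at 5.17 and 5.36 FPKM with HCl and 16.8 and 17.0 with NaHCO3 (-1.65, SE 0.11). LEF1, a partner of beta-catenin, was at 8.07 and 7.14 against 26.3 and 25.1 (-1.73). In all 5 genes, the control libraries lay between the arms. LGR5, DKK1 and CDX1, which is also in this list, passed the expression limit through the NaHCO3 libraries alone. The choice of genes thus fixed the direction of these members. Of 16 WNT ligands and modulators, 8 were lower and 3 higher with HCl (median -0.89). RSPO3, which amplifies WNT signals, was at 0.08 and 0.02 FPKM against 5.43 and 7.45 (-6.97), and WNT9B at 0.04 and 0.09 against 4.0 and 3.67. WNT2B was at 1.18 and 1.17 with HCl and 0.09 and 0.12 with NaHCO3 (3.52), so single ligands also stood the other way.

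Several genes of BMP signalling and lateral mesoderm, among them HAND1 and BMP4, were lower with HCl. In the BMP list, 6 of 17 were called lower, 1 higher and 10 were not called (median -0.18), and in the cardiac and lateral mesoderm list, 11 of 21 were lower and 2 higher (median -1.38). HAND1 (GRCh37 chromosome 5, 153854532 to 153857824), a regulator of lateral and extraembryonic mesoderm, was at 21.8 and 20.5 FPKM with HCl, 453.8 and 436.57 with NaHCO3, and 290.43 and 231.78 in the control (-4.37, SE 0.17, adjusted p = 5.06e-13). BMP4 was at 21.98 and 20.65 with HCl and 176.14 and 175.51 with NaHCO3 (-3.02, SE 0.11). BMP5 was at 0.06 and 0.18 against 10.6 and 10.2 (-6.34), and HAND2 at 1.11 and 0.57 against 10.3 and 9.27 (-3.51). In HAND1, HAND2, BMP4 and BMP5 the control lay between the arms. MSX2, a BMP target, stood at 9.03 and 8.63 FPKM with HCl and 75.6 and 75.4 with NaHCO3 (-3.07), and BMPER, a BMP-binding protein, at 2.76 and 2.59 against 51.7 and 52.4 (-4.25). KDR, a receptor of cardiovascular progenitors, was also lower with HCl, at 30.9 and 28.9 against 78.4 and 80.4. In the endothelial and blood list 1 of 5 measured genes was higher and 1 lower, and LMO2, a blood factor cofactor, was the higher one at 5.94 and 6.21 against 0.67 and 0.82. The amnion and trophoblast list had 2 of 6 higher and 2 lower, HAND1 and BAMBI being the lower ones.

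Many genes of anterior and pluripotent cells were higher with HCl. Of 10 neural ectoderm genes above the limit, 8 were called higher and the other 2 were not called (median 1.86), with SOX1 and PAX6 under 0.1 FPKM as above. SOX3, an early neural factor, was at 9.47 and 12.6 FPKM with HCl and 0.36 and 0.38 with NaHCO3 (4.92, SE 0.34). SIX3, a forebrain factor, was at 12.6 and 14.8 against 2.67 and 2.89 (2.32), and ZIC2 at 97.4 and 103.52 against 23.1 and 24.1 (2.12). LHX5, another forebrain factor, was at 1.92 and 2.81 against 0.1 and 0 (5.42, SE 0.64). SOX3 and LHX5 passed the limit through the HCl libraries alone, so the choice of genes fixed their direction. For the pluripotency list, 9 of 18 were called higher and 2 lower (median 0.88), with 1 lower without HCl replicate 2. SOX2 was at 14.1 and 21.3 FPKM with HCl, 2.02 and 1.76 with NaHCO3, and 5.54 and 9.93 in the control (3.25, SE 0.26). NANOG was at 4.75 and 7.17 against 1.48 and 1.91 (1.84), and FOXD3 at 6.29 and 8.63 against 0.49 and 0.67 (3.71). POU5F1 (OCT4) was not called, at 206.22 and 229.68 FPKM with HCl and 141.87 and 140.83 with NaHCO3 (0.65, adjusted p = 0.0171). The 2 pluripotency genes called lower with HCl were ZFP42 (-1.131) and L1TD1 (-1.075).

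The NODAL and retinoic acid lists were mixed, and single genes in them differed widely. In the NODAL and TGF-beta list 6 of 16 were higher and 3 lower (median 0.24). NODAL itself was lower with HCl, at 2.57 and 2.36 FPKM against 11.1 and 8.05 (-1.93). Its co-receptor TDGF1 was higher, at 125.27 and 144.16 against 18.7 and 19.6 (2.84, SE 0.15), and so was its antagonist LEFTY2, at 14.4 and 13.7 against 0.65 and 0.86 (4.25, SE 0.26). LEFTY2 in the control was at 14.8 and 19.9, beside the HCl level, so the NaHCO3 libraries were the ones apart. CYP26A1 (GRCh37 chromosome 10, 94833232 to 94837647), which degrades retinoic acid, was at 621.26 and 639.75 FPKM with HCl, 20.6 and 15.1 with NaHCO3, and 74.2 and 102.26 in the control (5.17, SE 0.27). ALDH1A2, which makes retinoic acid, was at 0.01 and 0.06 with HCl and 1.25 and 1.11 with NaHCO3 (-5.00), and RDH10, an earlier enzyme of its synthesis, at 1.68 and 2.10 against 14.9 and 14.5 (-2.93). Of the 15 measured retinoic acid genes, 6 were higher and 5 lower (median 0.07).

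**Figure D2:**
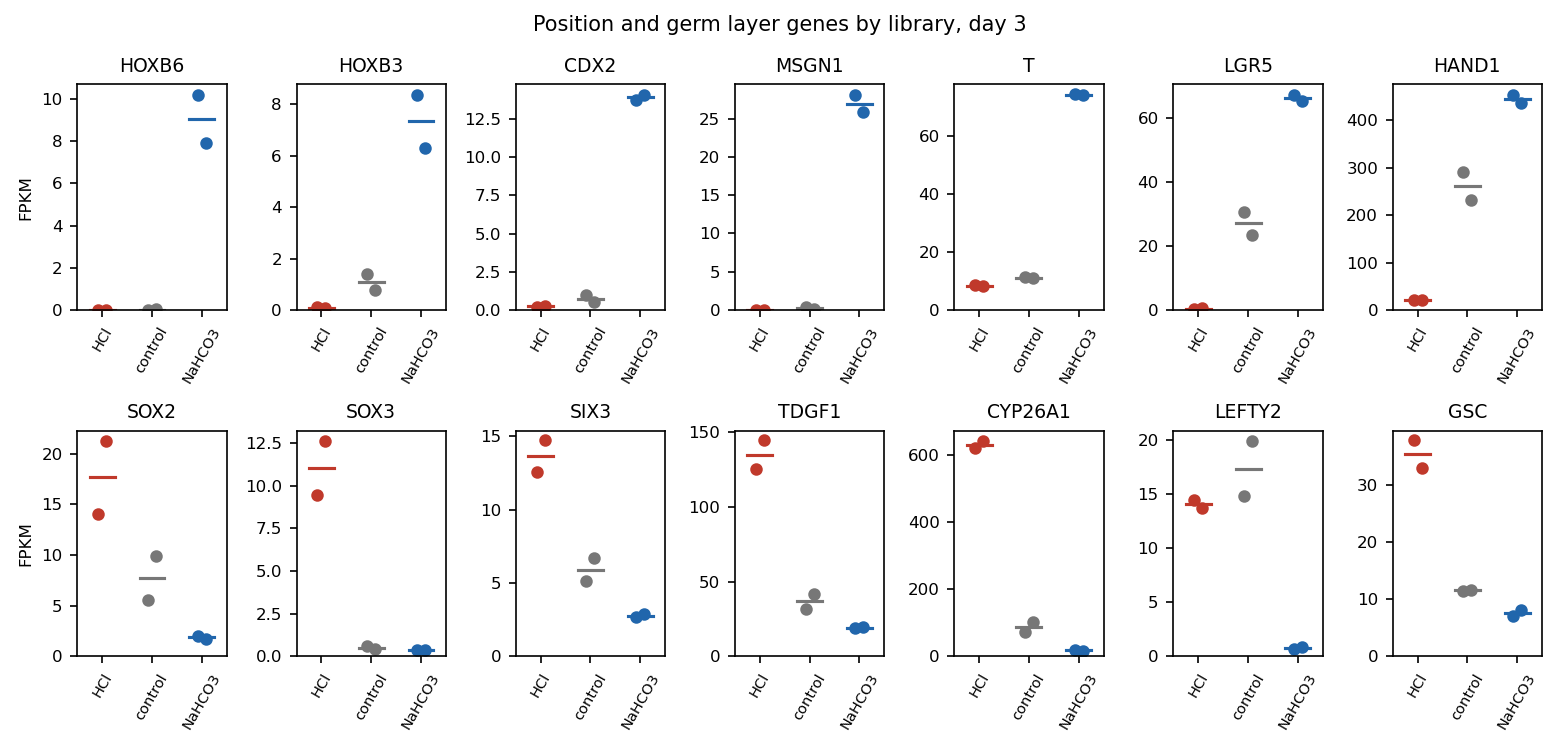
Each panel shows the FPKM of 1 gene on a linear axis from 0, with 1 point a library (n = 2) and a bar at the group mean, for HCl, control and NaHCO3 on day 3. The upper row, from HOXB6 to HAND1, is highest with NaHCO3, and the lower row is highest with HCl except LEFTY2, where control and HCl lie together and NaHCO3 is near 0.

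Targets of YAP with TEAD, factors that respond to cell shape and tension, were higher with HCl. Of 23 measured, 11 were called higher and 2 lower (median 0.95). CTGF (GRCh37 chromosome 6, 132269316 to 132272513) was at 128.25 and 126.93 FPKM with HCl, 4.23 and 5.44 with NaHCO3, and 6.26 and 7.96 in the control (4.75, SE 0.17, adjusted p = 2.42e-13). CYR61, a matrix protein of the same family, was at 109.14 and 114.57 against 4.40 and 3.77 (4.80, SE 0.17). F3, tissue factor, was at 11.2 and 12.9 against 1.41 and 0.95 (3.37). The 2 HCl libraries thus lay far above control and NaHCO3, which stood close to each other. ANKRD1, whose promoter is shown above, had a mean of 39.1 FPKM with HCl and 4.82 with NaHCO3 (3.05). FOXF2, a lateral mesoderm factor in this list, was lower, at 0.20 and 0.28 against 7.85 and 7.75 (-4.99). For immediate early genes, 8 of 15 were called higher and the other 7 were not called (median 1.29). JUN was at 29.8 and 31.5 FPKM with HCl and 5.54 and 4.96 with NaHCO3 (2.57, SE 0.14), and ZFP36, an RNA decay factor, at 10.4 and 11.0 against 3.14 and 1.93. Also among the largest rises by rank were the skeletal actin ACTA1, at 18.1 and 20.2 against 0.39 and 0.85 (4.99), and the growth factor PDGFB, at 12.1 and 14.7 against 0.23 and 0.69 (4.92).

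Some stress genes of 2 pathways, among them ATF3, CHAC1, GDF15 and CDKN1A, were higher with HCl, while most members of both lists were not called. The integrated stress response, which links amino acid or protein stress to the factors ATF4 and CHOP, had 8 of 25 genes called higher and 17 not called (median 0.64). ATF3 was at 9.80 and 9.64 FPKM with HCl, 1.76 and 1.53 with NaHCO3, and 1.46 and 1.63 in the control (2.59, SE 0.14). CHAC1, which breaks down glutathione, was at 8.65 and 8.76 against 0.94 and 1.06 (3.15), and the arginine carrier SLC7A3 at 87.9 and 98.4 against 15.8 and 14.8 (2.63). Control libraries for ATF3 and CHAC1 lay beside NaHCO3. In the ER unfolded protein response list, 1 of 22 was higher and 1 lower (median -0.16): the sensor ERN1 at 1.76 and 1.73 against 0.60 and 0.71, and DERL3 at 0.68 and 0.49 against 2.30 and 2.22. The p53 list had 7 of 26 higher and 19 not called (median 0.54). GDF15 (GRCh37 chromosome 19, 18485541 to 18499986), a stress cytokine, was at 13.0 and 12.6 FPKM with HCl, 0.10 and 0.03 with NaHCO3, and 0.44 and 0.38 in the control (7.52, SE 0.42). CDKN1A (p21), which halts the cell cycle, was at 6.58 and 6.97 against 0.82 and 1.01 (2.91, SE 0.28). BBC3 (PUMA), a trigger of cell death, was at 15.0 and 14.9 against 2.76 and 2.71 (2.48); it is also in the apoptosis list, where 5 of 18 were higher and 13 not called (median 0.20). Heat shock genes were mixed, with 5 of 19 higher and 3 lower (median -0.09): HSPB8 was at 17.4 and 17.0 FPKM with HCl and 3.72 and 3.62 with NaHCO3, and BAG3 at 7.53 and 9.93 against 52.4 and 51.8.

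Genes of DNA replication and mitosis were lower with HCl, and G1 cyclins and inhibitors stood on both sides. For DNA replication, 25 of 30 genes were called lower and 5 were not called, and all 30 had a log2 fold change below 0 (median -1.46). UHRF1, which couples DNA methylation to replication, was at 4.43 and 5.43 FPKM with HCl, 27.08 and 24.96 with NaHCO3, and 18.7 and 18.7 in the control (-2.37, SE 0.15). The origin factor MCM10 was at 2.16 and 2.62 against 11.5 and 11.7 (-2.25). In the G2/M and mitosis list, 18 of 28 were lower and 10 not called, and all 28 log2 fold changes were below 0 (median -1.12). MKI67, the proliferation marker, was at 9.18 and 8.89 FPKM with HCl, 29.03 and 27.98 with NaHCO3, and 29.6 and 28.6 in the control (-1.63, SE 0.28). HMMR, a spindle protein, was at 3.01 and 2.82 against 13.3 and 15.1 (-2.25). CDK1 had means of 12.0 and 32.5 (-1.41) and CCNB1 means of 45.7 and 104.7 (-1.17), both called. For MKI67 the control lay with NaHCO3. Of 13 G1 cyclins and inhibitors, 3 were higher and 2 lower (median -0.09): CCND2, a G1 cyclin, was at 88.4 and 94.0 FPKM with HCl and 19.7 and 19.2 with NaHCO3 (2.26). MYC was not called, at 10.7 and 13.3 against 15.1 and 15.8 (-0.33, adjusted p = 0.0783).

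Several glycolytic genes, among them LDHA, PFKFB4 and PKM, were lower with HCl. Of 20 enzymes, 8 were called lower, 1 higher and 11 were not called (median -0.50). LDHA (GRCh37 chromosome 11, 18415935 to 18429972), which turns pyruvate to lactate, was at 28.1 and 31.2 FPKM with HCl, 188.64 and 212.31 with NaHCO3, and 52.4 and 58.3 in the control (-2.73, SE 0.13, adjusted p = 8.17e-12). PFKFB4, an activator of phosphofructokinase, was at 1.61 and 1.56 with HCl and 14.8 in both NaHCO3 libraries (-3.20). PKM was at 121.75 and 126.34 against 324.62 and 323.46 (-1.36), and PGAM1 at 61.9 and 64.2 against 172.93 and 170.55 (-1.42). The glucose carrier SLC2A1 was at 16.0 and 17.8 FPKM with HCl, 57.7 and 55.1 with NaHCO3, and 16.0 and 15.1 in the control (-1.71, SE 0.11), and HK2, the first enzyme of the pathway, at 8.80 and 8.67 against 29.8 and 30.4 (-1.76). For both, HCl and control lay together and NaHCO3 apart. Across the whole list of glucose carriers and hexokinases 3 of 13 were higher and 2 lower (median 0.24), and the higher ones included TXNIP, an inhibitor of glucose uptake, at 53.1 and 61.7 against 18.3 and 22.6 (1.52). In the lactate list 2 of 14 were higher and 3 lower (median -0.20): PDK1, which holds pyruvate back from mitochondria, was at 2.07 and 2.10 FPKM with HCl and 14.1 and 16.2 with NaHCO3 (-2.83), and the lactate exporter SLC16A3 at 8.37 and 7.18 against 33.1 and 31.2 (-2.02). The hypoxia list had 4 of 18 higher and 5 lower (median -0.40), and its members LOX, at 82.0 and 71.3 against 7.78 and 8.32 (3.28), and PDK1 stood on opposite sides.

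Genes that move acid and base stood on both sides. Of 18 proton and bicarbonate carriers, 2 were higher and 4 lower (median 0.03), beside 10.9% higher and 8.00% lower of all 14135 genes. SLC9A9, an exchanger of endosomes, was at 3.29 and 4.57 against 0.68 and 0.83 (2.41). Among 4 measured carbonic anhydrases, 1 was higher and 2 lower (median -0.62), and CA2 was at 14.7 and 13.2 FPKM with HCl against 48.7 and 55.3 (-1.87, SE 0.16). The acid-sensing list had 1 of 3 measured genes called, ASIC3 at 1.30 and 1.21 against 0.56 and 0.68 (1.04, adjusted p = 0.045), and this call was lost without each of the 4 libraries in turn. In the list of the proton pump and lysosome, 1 of 28 was higher and 27 were not called (median 0.02), with 2 higher without HCl replicate 1.

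**Figure D3:**
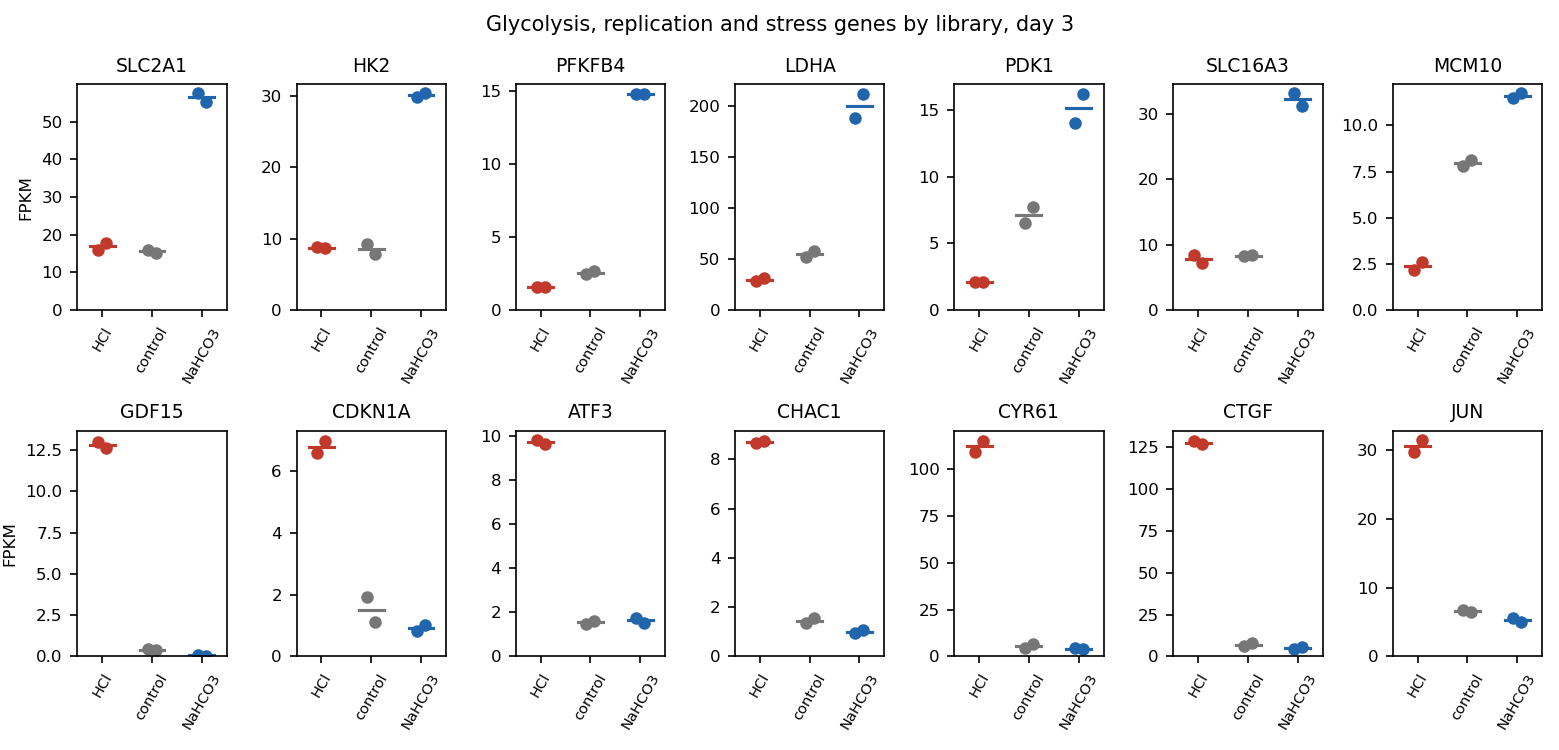
Each panel shows the FPKM of 1 gene on a linear axis from 0, with 1 point a library (n = 2) and a bar at the group mean, for HCl, control and NaHCO3 on day 3. In the upper row SLC2A1, HK2, PFKFB4, LDHA and SLC16A3 have the control nearer to HCl than to NaHCO3, and MCM10 is lowest with HCl; in the lower row HCl is far above both other groups.

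Adhesion and matrix genes were mixed. Of 21 genes of the epithelial and mesenchymal list, 7 were higher and 4 lower (median 0.76). The tight junction gene CLDN4 was at 16.8 and 17.0 FPKM with HCl and 1.67 and 2.00 with NaHCO3 (3.23), and the mesenchymal filament VIM at 58.8 and 65.4 against 443.09 and 381.23 (-2.70). In the matrix list, 2 of 21 were higher and 4 lower (median 0.08): FN1, fibronectin, was at 75.8 and 79.3 against 377.47 and 345.89 (-2.19), while THBS1, thrombospondin, was at 9.99 and 11.4 against 0.82 and 0.92 (3.65). NOTCH genes had 5 of 14 higher and 2 lower (median 0.62; 1 lower without any 1 of the 4 libraries), with the ligand JAG1 at 35.0 and 31.2 FPKM with HCl and 11.5 and 11.8 with NaHCO3. Of 23 FGF and ERK feedback genes, 3 were higher and 2 lower (median 0.28), with FGF17 at 111.07 and 128.06 against 22.6 and 21.3 (2.47). The endoderm list had 4 of 14 higher and 2 lower (median 0.24), with 2 higher without HCl replicate 2 or without NaHCO3 replicate 1. Its HHEX, an anterior endoderm factor, was at 6.88 and 6.46 against 1.28 and 1.35, while the lipoprotein gene APOA1 was at 0.47 and 0.30 against 9.83 and 9.27. In the cholesterol and fatty acid list, 1 of 30 was higher and 5 lower (median -0.32), with 3 lower without HCl replicate 2 and 2 lower without NaHCO3 replicate 1. LSS, an enzyme of sterol synthesis, was at 12.4 and 11.7 against 27.6 and 25.3.

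Some lists had 0 calls by edgeR in either direction, and DESeq2 gave 0 in each as well. For 30 cytosolic ribosomal protein genes, all log2 fold changes were above 0 (median 0.33), and 8 had an unadjusted p under 0.05. In 27 nuclear oxidative phosphorylation genes, 4 higher and 3 lower reached that p (median -0.01), and in 13 mitochondrially encoded genes 2 and 2 (median 0.01). The metallothionein list had 7 measured genes, among them MTF1 and SLC30A1, which are not metallothioneins. Of these 7, 0 higher and 2 lower reached that p (median 0.38). The metallothionein list did not stay at 0 calls without NaHCO3 replicate 1.

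**Figure D4:**
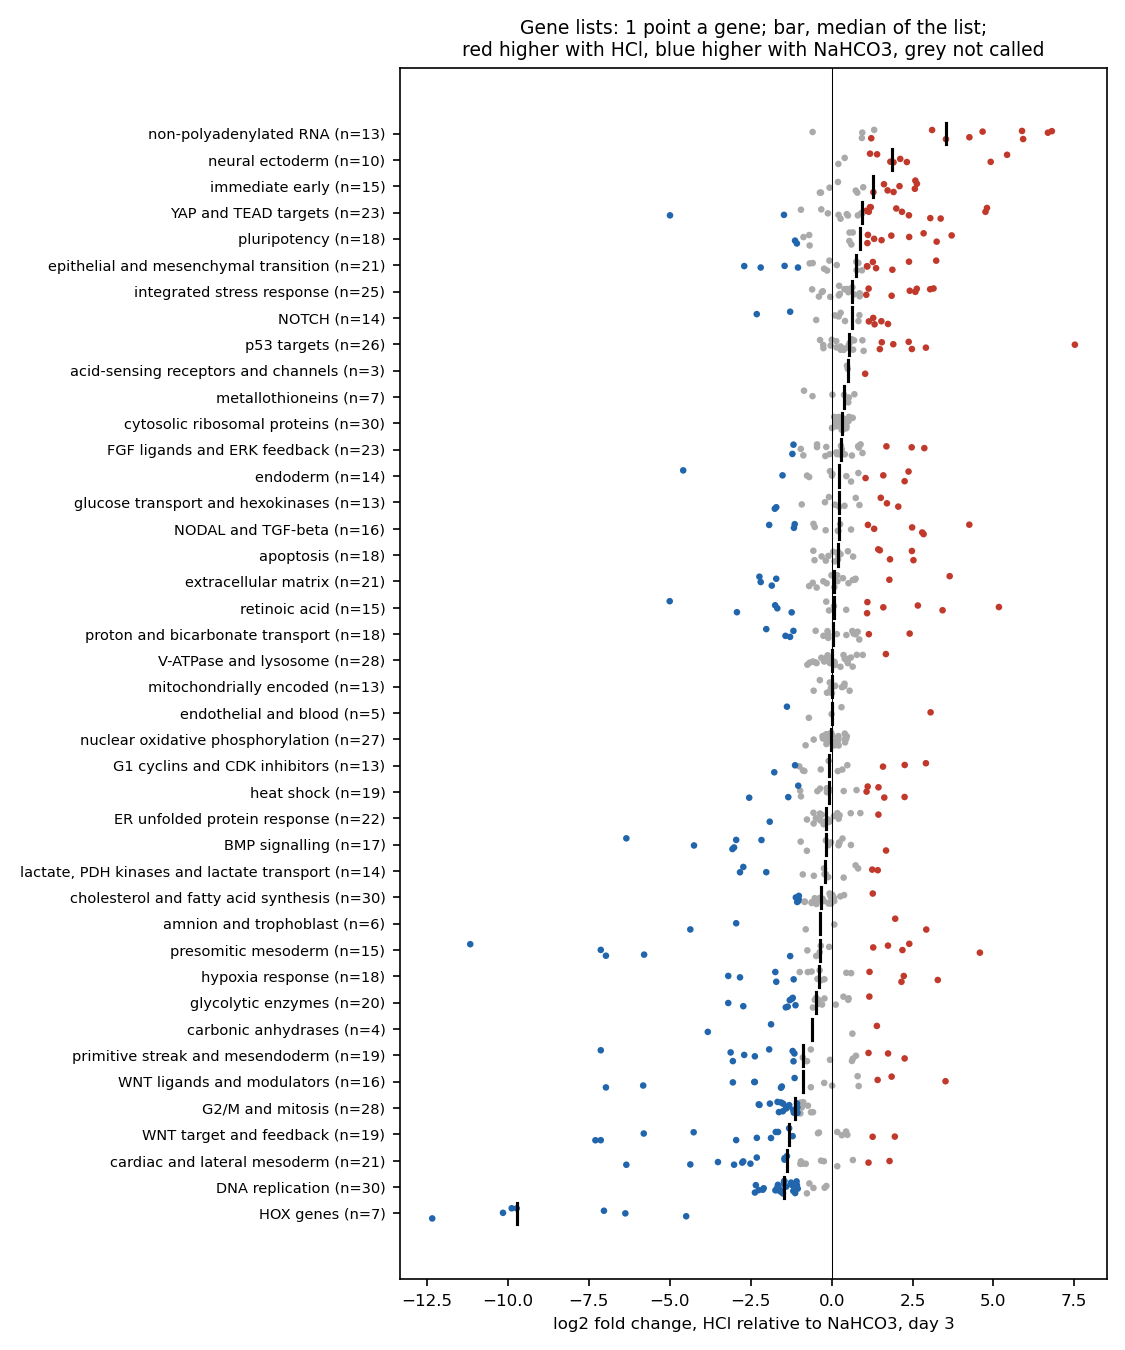
Each row is 1 gene list, each point 1 measured gene at its log2 fold change of HCl relative to NaHCO3 on day 3, and each black bar the median; red points were called higher with HCl and blue points lower. DNA replication (median -1.46) and HOX genes (fitted median -9.73, with 4 genes at 0 counts with HCl drawn at fitted values) lie at the bottom, and neural ectoderm (1.86) and immediate early genes (1.29) near the top.

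The control libraries place each difference. Against the control, 1489 of the 14135 genes were called with HCl (10.5%), 876 higher (6.20%) and 613 lower (4.34%). With NaHCO3 550 were called (3.89%), 297 higher (2.10%) and 253 lower (1.79%). The mean of the control lay between the 2 arm means in 88.0% of the genes called between the arms and in 61.1% of all 14135. The called genes were chosen for a wide gap between the arms, into which another mean falls more readily. The higher share is therefore in part set by that choice. The 2 comparisons share the control libraries, so their values are set side by side only. For G2/M and mitosis, 21 of 28 genes were lower with HCl than in the control, and 0 were called with NaHCO3, where edgeR found 3 at an unadjusted p under 0.05 and DESeq2 called 0. DNA replication had 19 of 30 lower with HCl and 0 called with NaHCO3 (18 at an unadjusted p under 0.05, of which 17 were higher, and 0 by DESeq2). YAP and TEAD targets had 12 of 23 higher and 2 lower with HCl, and 1 lower with NaHCO3. HOXB3 was called lower with HCl than in the control and higher with NaHCO3, and HOXB6 was called with NaHCO3 alone; the HOX genes measured were those that reached the expression limit with NaHCO3, so no count of them is read here. Glycolytic enzymes had 0 of 20 called with HCl (5 higher and 6 lower at an unadjusted p under 0.05, and 0 by DESeq2) and 4 higher with NaHCO3. No test compared the sizes of the 2 effects.

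By day 5, 2909 of the 14135 genes were called between the same arms (20.6%), 1735 higher (12.3%) and 1174 lower (8.31%). A change of the difference between the days, tested as an interaction, was called in 2766 (19.6%), upward in 1577 (11.2%) and downward in 1189 (8.41%). Of the genes called on day 3, 800 were also called higher and 422 also called lower on day 5, while 55 went from higher to lower and 84 from lower to higher. A called change of the difference was found in 1256 genes called on day 3, toward 0 or past it in 925 and further from 0 in 331. These genes were chosen for a large difference on day 3, which also enters the change. That choice favours movement toward 0, so the 2 counts are descriptions. LGR5 closed to 3.99 and 5.59 FPKM with HCl against 8.04 and 9.82 with NaHCO3 (change of the log2 difference 6.40), and DKK1 to 1.77 and 2.68 against 2.67 and 3.41 (5.36). LDHA was at 27.9 and 29.7 against 39.4 and 42.3 on day 5 (2.23). In LGR5, DKK1 and LDHA the difference on day 5 was no longer called. HOXB6 remained apart, with 0 and 0.03 FPKM with HCl and 42.9 and 43.3 with NaHCO3, as did HAND1, with a log2 fold change of -4.59 on day 5. CDKN1A widened, to 43.8 and 42.6 against 0.43 and 0.76 (3.25), and ACTA1 to 231.9 and 229.94 against 0.08 and 0.15 (5.93). T changed sides, with 2.11 and 2.74 FPKM with HCl and 0.07 and 0.11 with NaHCO3. Cell cycle lists no longer had lower calls on day 5. In the DNA replication list 9 of 30 were higher and the rest not called (median 0.66). In the mitotic list 1 of 28 was higher and the rest not called (median 0.46). At an unadjusted p under 0.05 (edgeR), 23 replication genes were higher and 2 lower, and 19 mitotic genes were higher and 1 lower. A change of the difference between the days was called in 29 of 30 replication and 28 of 28 mitotic genes. The integrated stress response list had 19 of 25 higher and the p53 list 18 of 26 higher and 1 lower.

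**Figure D5:**
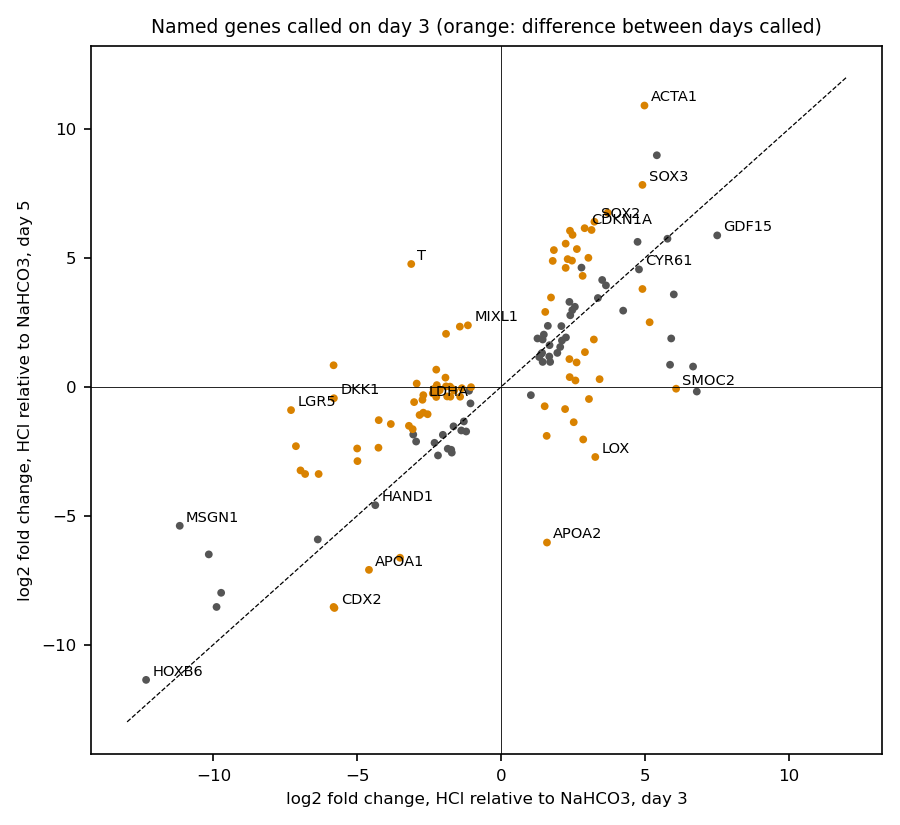
Each point is 1 named gene called on day 3, with its log2 fold change of HCl relative to NaHCO3 on day 3 (horizontal) and on day 5 (vertical); the dashed line marks equal values and orange points have a called change between the days. LGR5, DKK1 and LDHA lie near 0 on day 5, HOXB6 and HAND1 near the line, and T, MIXL1, LOX and APOA2 in the quadrants of opposite sign.

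NaHCO3 was also added to cells in which WNT secretion was blocked with IWP2. In that comparison 411 of the 14135 genes were called (2.91%), 224 higher (1.58%) and 187 lower (1.32%) with NaHCO3. These libraries are not those of the comparison with HCl, and the 2 effects were not tested against each other. LDHA was at 44.9 and 47.8 FPKM with IWP2 alone and 143.31 and 152.09 with NaHCO3 added (log2 fold change 1.68), and SLC2A1 at 12.0 and 12.5 against 43.2 and 35.2 (1.68). LGR5 was at 9.61 and 12.9 against 49.9 and 48.8 (2.14), and HOXB3 at 0.79 and 0.56 against 4.97 and 3.90 (2.72). All 4 were higher with added NaHCO3. CDX2 was not called, at 0.17 and 0.06 FPKM against 0.27 and 0.15, nor was T, at 4.44 and 4.66 against 4.75 and 5.37, and MSGN1 was at 0 and 0.1 against 0 and 0. LEFTY2 was lower with added NaHCO3, at 40.2 and 33.6 against 2.17 and 2.83 (-3.88). CTGF, at 6.92 and 6.15 against 4.67 and 4.28, GDF15, at 0.60 and 0.29 against 0.19 and 0.06, and MKI67, at 23.0 and 26.0 against 29.6 and 32.1, were not called.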

How the data were processed

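Per the labels' protocols, RNAiso Plus was used on the H1 cells and the VAHTS Universal V8 kit turned the total RNA into sequencing libraries. The submitters' processing notes name HTSeq 0.6.1, HISAT2 2.0.1, cutadapt 1.9.1 and the build GRCh37; settings and strand are not given in the sources used here. The authors deposited counts per gene and FPKM in 1 table of days 3 and 5, 24 libraries of 14794134 to 22796553 counts. Genes that overlap another gene or have near-identical copies are uncertain.

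The 17286 genes with at least 1 FPKM in 2 or more of the 24 libraries were fitted to the deposited counts with edgeR 4.0.16 (R 4.3.3): TMM scaling, robust quasi-likelihood, 1 mean per group, with the spread estimated jointly, and Benjamini-Hochberg adjustment over the fitted genes. The change between days is an interaction. The SE of a log2 fold change was taken as its size over the root of its F statistic. A fold against 0 counts uses a floor of 3 counts per library, covering counting error only. Levels are the deposited FPKM. The fit was tested on simulated counts. Of the 14135 genes, 13726 matched GENCODE v29 for gene type.

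The genes described and the 42 lists were chosen with earlier results of these data known. Named genes are the 10 largest differences in each direction among called protein-coding genes of at least 5 FPKM whose libraries did not overlap, up to 4 called genes per list of at least 1 FPKM, and a fixed panel; CDK1, CCNB1 and ANKRD1 were added for their promoters. Promoters of 27305 genes came from RefSeq on GRCh38.p14. Alternatives were other scaling, filters, DESeq2 1.42.0, limma 3.58.1 on log2(FPKM + 1) and log2(FPKM + 0.1), fewer libraries, the replicate number as a block, and leaving out each replicate. Days 0, 7 and 11 were not used here. Some genes that the rule names are not reported here.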

Additional observations from a re-analysis of the deposited data

Results flagged for a closer look

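The difference between HCl and NaHCO3 changed from day 3 to day 5 in 2766 genes by the interaction test. Named genes called in opposite directions on the days were picked out for this. The log2 difference on day 5 minus that on day 3 was 7.89 for T, 3.54 for the streak factor MIXL1, 3.97 for DERL3 and 3.77 for the proton pump gene ATP12A, which were lower with HCl on day 3 and higher on day 5. It was -7.64 for APOA2, -3.49 for CDKN1C, a cell cycle inhibitor, -6.00 for LOX and -3.90 for BIK, which were higher with HCl on day 3 and lower on day 5. CDKN1C stood at 35.3 and 37.7 FPKM with HCl and 12.9 and 11.9 with NaHCO3 on day 3, and at 20.8 and 18.3 against 72.4 and 73.7 on day 5. MIXL1 on day 5 was at 5.67 and 6.00 FPKM with HCl and 1.07 and 1.15 with NaHCO3. APOA2 on day 3 was low in every library, at 1.43 and 1.98 FPKM with HCl and 0.51 and 0.64 with NaHCO3. Its day 3 call was lost in the libraries of day 3 alone (adjusted p = 0.0883, edgeR) and without 3 of the 4 libraries in turn (adjusted p = 0.0561 to 0.129).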

How the results depend on the processing

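With limma on log2(FPKM + 1), 1687 genes were called in place of 2678, 941 higher and 746 lower, and 216 in place of 411 for NaHCO3 added to IWP2; the pseudocount shrinks the fold change of low genes. All other alternatives kept these counts within 1.5 times: 2586 to 2711 for the first with all libraries of both arms. These counts and those that follow are totals, and the genes called were not all the same. Leaving out 1 HCl or NaHCO3 library of day 3 gave 2498 to 2631 calls (1424 to 1491 higher, 1074 to 1144 lower) and 2616 to 2755 for the change between days. Leaving out a day 5 library gave 2602 to 2760 there, and an IWP2 library 275 to 410, choices added after seeing the data. Same-numbered libraries of the 2 arms did not deviate together (r = 0.02 over 14135 genes), so the numbers are not taken to pair samples; with the replicate block 2671 genes were called, 2766 for the change between days and 414 for IWP2. Of 140 called named genes, 126 kept their call in every alternative and 0 reversed. Calls of WNT2B, ERN1, SRXN1, SLC9A8 and TNFRSF10A ended only with limma on log2(FPKM + 1). APOA2, ASIC3, MVK and FADS2 lost theirs without single libraries, as did RPPH1, RMRP, RN7SK and RNA18S5, with log2 fold changes of 1.97, 0.53, 2.52 and 1.23 without HCl replicate 1. Calls were 57.8% higher with HCl, and 55.4 to 58.2% under other scaling, filters or pseudocounts. The 2-DG libraries of day 3, far apart from each other, enter the shared spread; without them 2711 genes were called.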

Other observations

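RNAs without a poly(A) tail were also uneven in another pair of day 3 libraries. RPPH1 was at 0.82 and 45.5 FPKM in the libraries with IWP2 and NaHCO3, RMRP at 1.72 and 111.73, RN7SK at 8.34 and 253.22 and RNA18S5 at 4.11 and 64.0. In the libraries with IWP2 alone RPPH1 was at 0.74 and 0.38. The 4 HCl and NaHCO3 libraries of day 5 had RPPH1 at 0.20, 0.79, 0.46 and 0.69.

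Among genes that rank highest but belong to no list, SMOC2, a matrix protein that binds calcium, was at 5.07 and 6.42 FPKM with HCl and 0.11 and 0.06 with NaHCO3 on day 3 (log2 fold change 6.09), and at 6.35 and 5.74 against 7.25 and 5.48 on day 5. CHP2, a calcineurin-like cofactor of sodium-proton exchangers, was at 5.26 and 5.79 with HCl, 0 and 0.18 with NaHCO3, and 0.39 and 0.33 in the control. LIX1 was at 0.16 and 0.21 with HCl and 23.9 and 18.8 with NaHCO3, and the netrin receptor UNC5C at 0.09 and 0.13 against 6.94 and 5.99.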
